A study of Mus musculus with 7 samples.

Results

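The 10 genes described here are transcripts that neutrophils are known for: the alarmins S100a8 and S100a9, the resistin-like gene Retnlg, the receptor and surface genes Csf3r and Ly6g, the granule genes Camp, Ngp, Ltf and Lcn2, and the peroxidase gene Mpo. They were taken by name from the deposited table, where all 10 were found among 32544 genes. The table holds 7 libraries from the whole abdominal aorta of Apoe-/- male mice on a high-fat diet for 12 weeks; without apolipoprotein E, mice develop plaques. Of these, 3 libraries came from mice given ITA-LNP and 4 from mice given control-LNP, each at 50 mg/kg into the vein 1 time a week. Every group therefore carries the Apoe deletion and the diet. ITA is read from the series title as itaconate and LNP as lipid nanoparticle. Whether the libraries come from different mice is not in the labels; the p-values reflect library-to-library spread, part of which may be technical.

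Neutrophils make their granules in sequence while they mature in the bone marrow. Promyelocytes transcribe the azurophil granule genes such as Mpo, myelocytes the specific granule genes Ltf, Camp, Ngp and Lcn2, and mature cells in blood keep high levels of S100a8, S100a9, Retnlg and Csf3r messages while the granule messages are mostly shut off. S100A8 and S100A9 form calprotectin, a calcium- and metal-binding dimer that is released as a danger signal. The transcription factors PU.1 and C/EBP drive much of this programme.

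In ITA-LNP libraries the alarmin, resistin-like and receptor transcripts were far lower than in control-LNP libraries, while Lcn2 did not share that direction. S100a8, S100a9, Retnlg and Csf3r passed the test as lower with ITA-LNP, and each ITA-LNP library lay below each control-LNP library for all 4. Lcn2 was higher in every ITA-LNP library than in control-LNP replicates 1, 3 and 4, and lower than in control-LNP replicate 2. The specific granule genes Camp, Ngp and Ltf and the azurophil gene Mpo had very few reads in any library.

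Retnlg was called lower with ITA-LNP, as S100a8 and S100a9 were, and Lcn2 was not. The promoters of S100a8 and S100a9, the most abundant of the 10 genes in control-LNP libraries, are shown beside those of Retnlg and Lcn2. Each is the 250 bases before the RefSeq start, on GRCm38.p6 and on the gene's strand, at chr3:90668821-90669070 (plus strand), chr3:90695722-90695971 (minus), chr16:48872358-48872607 (plus) and chr2:32387740-32387989 (minus). Capitals mark matches to GAGGAAGT (a PU.1 site), TTGCNNAA (a C/EBP site), both searched on both strands, and TATAAA, marked on the gene's strand.
S100a8: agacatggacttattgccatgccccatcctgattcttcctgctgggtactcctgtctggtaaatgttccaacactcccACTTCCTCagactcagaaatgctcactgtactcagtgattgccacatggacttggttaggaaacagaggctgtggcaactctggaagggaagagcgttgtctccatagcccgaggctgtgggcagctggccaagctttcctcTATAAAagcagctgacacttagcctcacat
S100a9: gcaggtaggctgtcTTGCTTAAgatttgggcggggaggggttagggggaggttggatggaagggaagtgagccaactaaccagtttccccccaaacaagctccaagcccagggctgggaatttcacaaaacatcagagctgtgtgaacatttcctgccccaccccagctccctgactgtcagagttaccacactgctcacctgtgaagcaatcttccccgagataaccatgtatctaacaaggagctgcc
Retnlg: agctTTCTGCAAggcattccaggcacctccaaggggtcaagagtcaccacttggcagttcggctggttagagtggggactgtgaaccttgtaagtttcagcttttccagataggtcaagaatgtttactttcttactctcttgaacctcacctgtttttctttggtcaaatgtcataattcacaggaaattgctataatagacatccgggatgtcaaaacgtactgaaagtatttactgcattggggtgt
Lcn2: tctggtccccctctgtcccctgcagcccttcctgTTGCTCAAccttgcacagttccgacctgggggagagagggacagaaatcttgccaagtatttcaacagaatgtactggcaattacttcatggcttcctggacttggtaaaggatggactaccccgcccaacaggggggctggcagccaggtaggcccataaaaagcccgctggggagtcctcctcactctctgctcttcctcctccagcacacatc
The S100a8 promoter held GAGGAAGT on the opposite strand, starting 172 bases before the start, and TATAAA at 30 bases. TTGCNNAA lay 236 bases before the start of S100a9, 246 bases before that of Retnlg (opposite strand) and 216 bases before that of Lcn2. All 10 genes matched the RefSeq table with 11 promoters, since Ly6g has 2 starts whose windows overlap. Of these 11 promoters, 6 held TTGCNNAA, against 9.56% of 32851 promoters, and 4 held GAGGAAGT (S100a8, Mpo and both of Ly6g, which share the site), against 2.44%. TATAAA on the gene's strand stood in 3 of 11 (S100a8 and both of Ly6g, which share the site), against 7.59%. A match is a description of letters only, and the distances hold for the RefSeq starts. The gene spans given below are from GENCODE and begin further upstream for all of the 10 genes but S100a9 and Retnlg. The windows of those genes therefore reach into their GENCODE spans. Among the promoters shown, the S100a8 window reaches into its span, and the Lcn2 window lies inside its own.

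S100a8 (chromosome 3, 90668978 to 90670035, mm10) and S100a9 (chromosome 3, 90692632 to 90695721) lie 22.6 kb apart with no protein-coding gene between them. Camp, Ngp and Ltf all lie on chromosome 9, with 570 kb from Camp to Ngp and 596 kb from Ngp to Ltf. No other annotated gene overlaps any of the 10 except Gm11505, antisense to Mpo. Whether the counting used strand is not given in the sources used here, so Mpo reads cannot be told from Gm11505 reads. Ly6g belongs to a cluster of near-identical Ly6 genes, and its count is uncertain where reads could be split.

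The libraries held 6375381 to 7281721 reads with ITA-LNP and 5077073 to 6688872 with control-LNP. CPM is reads per 1000000 reads assigned to genes, and 0 reads allow a level of up to 0.412 to 0.591 CPM, depending on the library; such limits and all intervals on shares cover counting error only. Because 3′ sequencing gives about 1 read per transcript, levels of different genes were compared without a length correction. Control-LNP replicate 2 stood apart from the other control-LNP libraries. It correlated with them across genes at 0.727 to 0.739, while they correlated with each other at 0.970 to 0.975. Of 2962 genes at 1 to 5 CPM in the other 3, 57.5% had no read in replicate 2, against 6.93% to 15.5% when replicates 1, 3 and 4 were each set against the other 2 of these 3. Defining markers of the labelled tissue were low in the control-LNP libraries: 7 smooth muscle markers summed to 16887 to 20744 CPM with ITA-LNP and 435 to 615 CPM with control-LNP. In the opposite direction, 8 platelet markers summed to 137 to 215 CPM with ITA-LNP and 10424 to 14392 CPM with control-LNP, and 7 B cell markers to 38.9 to 198 CPM and 2029 to 4147 CPM. The part of these differences between the libraries in the results below was not tested. In such bulk samples fewer neutrophils and less RNA per neutrophil cannot be told apart.

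S100a8 was measured at 33.1, 47.6 and 13.3 CPM in the 3 ITA-LNP libraries, against 307, 11809, 5981 and 479 CPM in the 4 control-LNP libraries, in order of replicate number as in all values below. The 2 groups did not overlap, and control-LNP replicates 2 and 3 were over 10 times as high as replicates 1 and 4. The level averaged 31.3 ± 17.2 CPM with ITA-LNP and 4644 ± 5455 CPM with control-LNP (SD, n = 3 and 4), or 2256 ± 3227 CPM without control-LNP replicate 2. On the scale of log2(CPM + 1), which understates changes of low genes, S100a8 fell by 5.97 with ITA-LNP (SE 1.19; 95% interval -8.65 to -3.29; adjusted p = 0.00760, limma), and by 5.06 without control-LNP replicate 2 (adjusted p = 0.00789, limma).

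S100a9 stood at 23.5, 10.3 and 27.3 CPM with ITA-LNP, against 528, 10638, 3361 and 457 CPM with control-LNP. The order of the control-LNP libraries was close to that of S100a8, with replicates 2 and 3 on top, and the groups did not overlap. Its change was -6.43 ± 1.01 (SE; adjusted p = 0.00234, limma), and -5.55 ± 0.75 without control-LNP replicate 2. The ratio of S100a8 to S100a9 reads within a library was 1.41, 4.61 and 0.487 with ITA-LNP and 0.581, 1.11, 1.78 and 1.05 with control-LNP. This ratio crossed 1 in both groups and its difference did not pass an exact two-sided permutation test (p = 0.629; adjusted p = 0.629 over 5 ratios; smallest possible p 0.0286). Among all genes of a library, S100a8 ranked 4 and S100a9 ranked 8 by reads in control-LNP replicate 2, and 17 and 40 in replicate 3. With ITA-LNP no rank of either was above 3812.

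Retnlg (chromosome 16, 48872621 to 48874496), a small secreted cysteine-rich protein of neutrophils, was at 2.04, 2.36 and 3.43 CPM with ITA-LNP, against 39.4, 2980, 666 and 63.0 CPM with control-LNP. It spanned 75.7 times among the control-LNP libraries, against 38.5 times for S100a8 and 23.3 times for S100a9. Without control-LNP replicate 2 the order of the first 2 turned, with spans of 16.9 times for Retnlg, 19.5 times for S100a8 and 7.35 times for S100a9. Every ITA-LNP value was far below the lowest control-LNP value. Retnlg changed by -6.23 ± 1.36 (SE; adjusted p = 0.0117, limma), and by -5.07 ± 1.00 without control-LNP replicate 2 (adjusted p = 0.00650).

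Csf3r (chromosome 4, 126024550 to 126044440), the receptor for granulocyte colony-stimulating factor, was at 0.471, 0.147 and 0.275 CPM with ITA-LNP, on 3, 1 and 2 reads, and at 12.0, 305, 51.4 and 10.7 CPM with control-LNP. The groups did not overlap, and 6 reads in all stood behind the ITA-LNP values. Csf3r changed by -4.94 ± 1.23 (SE; adjusted p = 0.0224, limma). It lost its call without any 1 of the 3 ITA-LNP libraries or without control-LNP replicate 3 (adjusted p 0.0711 to 0.0776), and with the libraries centred on their medians (0.0580). Its ligand gene Csf3 had no read in any library.

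Ly6g (chromosome 15, 75155240 to 75159126), the surface protein by which mouse neutrophils are commonly sorted, had 1, 1 and 0 reads with ITA-LNP and 0, 448, 41 and 10 reads with control-LNP. In CPM these were 0.157, 0.147 and 0 with ITA-LNP and 0, 67.0, 7.89 and 1.64 with control-LNP, so that control-LNP replicate 1 lay at the ITA-LNP level. Its change on the log2 scale, -2.52 ± 1.31, missed the threshold (adjusted p = 0.239, limma). Without control-LNP replicate 2 the gene was below the filter and was not tested.

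**Figure D1:**
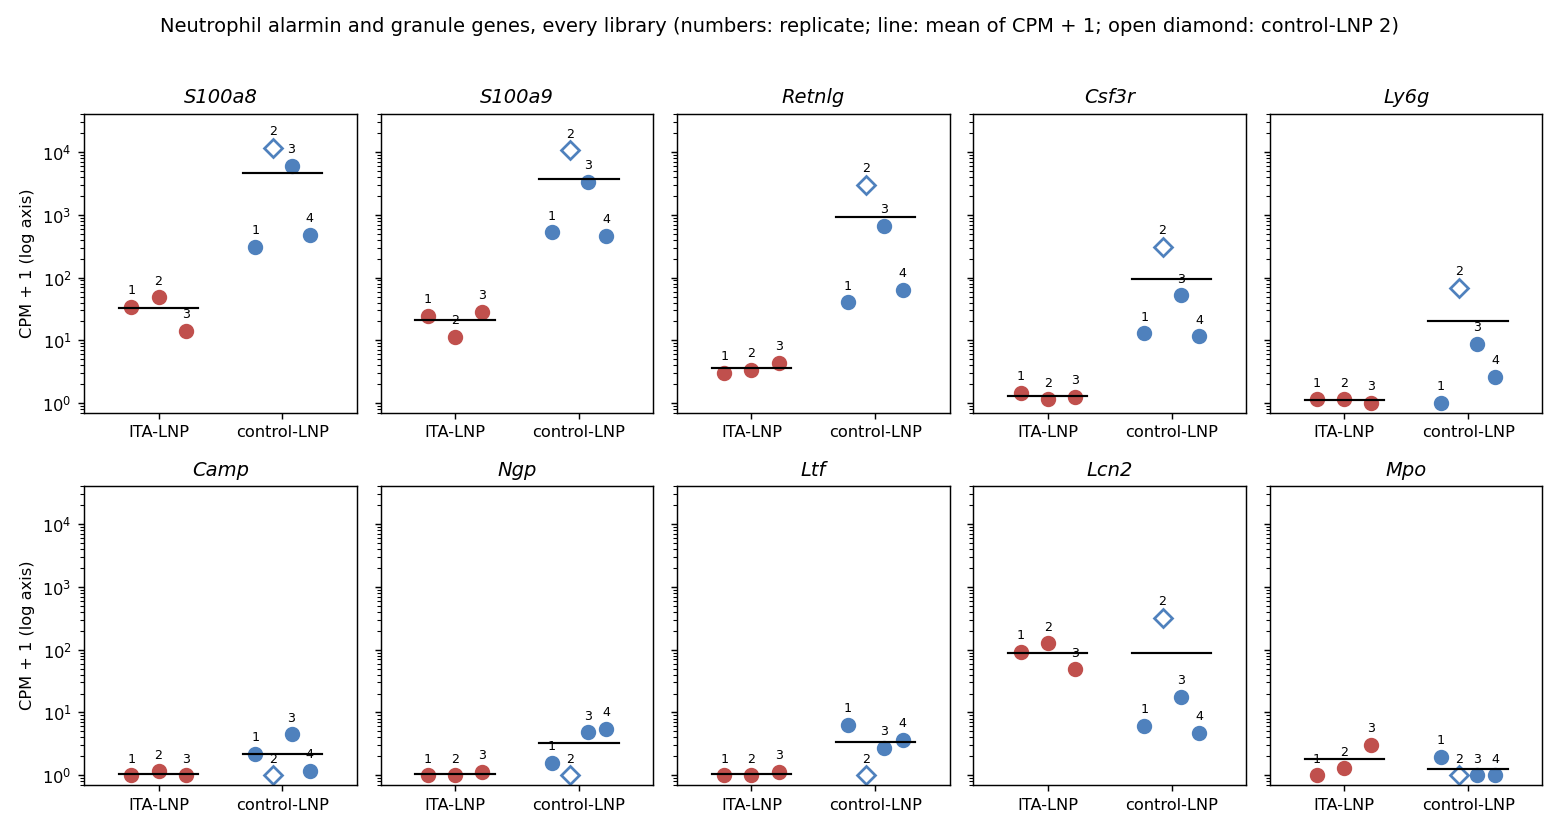
CPM + 1 of each of the 10 genes in every library, on a log axis, with ITA-LNP at the left and control-LNP at the right of each panel, replicate numbers above the points, and a line at the mean of CPM + 1. S100a8, S100a9, Retnlg and Csf3r show no overlap between the groups, and the ITA-LNP values of Lcn2 (47.7 to 125 CPM) lie above control-LNP replicates 1, 3 and 4 (3.77 to 16.5 CPM) and below replicate 2 (321 CPM).

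Of the 10 genes, 6 passed the filter, which asked for log2(CPM + 1) to average 1 or more. In this comparison 4 of the 6 were lower, where 5.15% of the 12636 genes tested were lower, and none of the 6 was higher, where 10.3% of those tested were. Groups did not overlap for 4 of the 6 with ITA-LNP below, against 10.7% of genes tested, and for none with ITA-LNP above, against 19.1%. The median log2 fold change was -5.45 over the 6 genes and 0.15 over all genes tested. A gene that passes such a filter through the group where it is high had to differ, so these counts are a description. At an unadjusted p under 0.05, 4 of the 6 passed. Without control-LNP replicate 2, 5 were lower and 1 was higher among 6 tested, where Ltf took the place of Ly6g and entered only through the control-LNP libraries left, and where 16% and 15.4% of 12893 genes were called lower and higher. Of the 6 genes tested over all libraries, the groups then did not overlap for 4 with ITA-LNP below, against 24.2% of the same 12636 genes, and for Lcn2 with ITA-LNP above, against 21.4%. Centring the libraries on their medians turned the split of all calls to 9.88% lower and 5.86% higher, with 3 of the 6 genes lower. With limma-voom on the recovered reads, S100a8, S100a9 and Retnlg lost their calls at larger folds, and Csf3r alone remained lower (adjusted p = 0.0453).

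**Figure D2:**
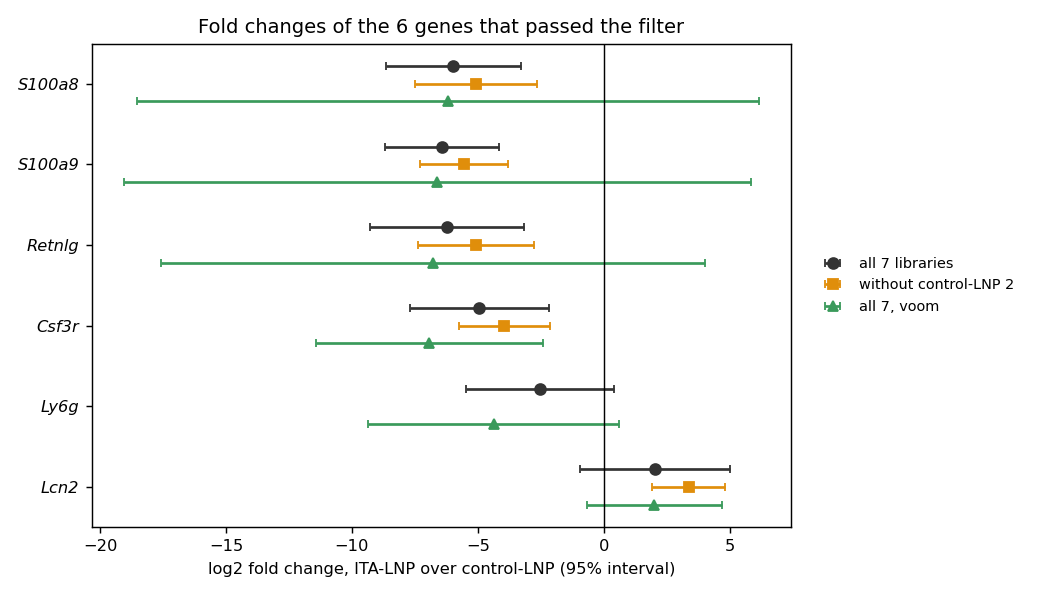
Log2 fold changes of ITA-LNP over control-LNP with 95% intervals for the 6 genes that passed the filter, from all 7 libraries (circles), without control-LNP replicate 2 (squares; Ly6g was then not tested) and with limma-voom (triangles). S100a8, S100a9, Retnlg and Csf3r lie left of 0 in all 3 fits, with voom intervals of S100a8, S100a9 and Retnlg that cross 0, and Lcn2 lies right of 0 in all 3.

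Lcn2 (chromosome 2, 32384633 to 32388252) encodes lipocalin 2, which binds bacterial iron carriers; neutrophils store it in specific granules, and many other cells, adipocytes and endothelium included, make it in inflammation. Lcn2 was at 90.7, 125 and 47.7 CPM with ITA-LNP, against 5.12, 321, 16.5 and 3.77 CPM with control-LNP. Among the control-LNP libraries its order was that of S100a9, with replicates 2 and 3 on top, as they were for S100a8. The means of Lcn2 were 87.7 ± 38.6 CPM with ITA-LNP and 86.6 ± 156 CPM with control-LNP (SD, n = 3 and 4). Without control-LNP replicate 2, which was 37.8 times as high as the mean of the others, the control-LNP mean was 8.48 ± 7.02 CPM, the groups did not overlap, and ITA-LNP was 10.3 times as high. Over all libraries Lcn2 differed by 2.03 ± 1.34 on the log2 scale and missed the threshold (adjusted p = 0.363, limma; 95% interval -0.96 to 5.03). It was 3.37 ± 0.63 and passed without that replicate (adjusted p = 0.00521, limma), also with median centring (3.13, adjusted p = 0.00811), and it was 3.62 with sample weights (adjusted p = 0.00164). In the other 16 alternatives Lcn2 did not pass, and its change was as low as 0.90 with median centring of all libraries (adjusted p = 0.779) and 1.34 with the replicate block (adjusted p = 0.523).

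Within a library, Lcn2 stood in another proportion to S100a8 in each group. Lcn2 had 2.74, 2.62 and 3.58 reads per S100a8 read with ITA-LNP, and 0.0167, 0.0272, 0.00277 and 0.00787 with control-LNP. The groups lay far apart and did not overlap, control-LNP replicate 2 included (exact two-sided permutation p = 0.0286, the smallest that 35 splits allow; adjusted p = 0.0714 over 5 ratios). The difference of mean log2 ratios was 8.21, and 7.59 to 8.69 when any 1 library was left out. Ratios of Retnlg and of Csf3r to S100a8 overlapped between the groups (exact permutation adjusted p = 0.464 and 0.429). Retnlg per S100a8 read was 6.16%, 4.95% and 25.8% with ITA-LNP and 12.8%, 25.2%, 11.1% and 13.1% with control-LNP, and the ITA-LNP values rest on 13, 16 and 25 Retnlg reads.

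**Figure D3:**
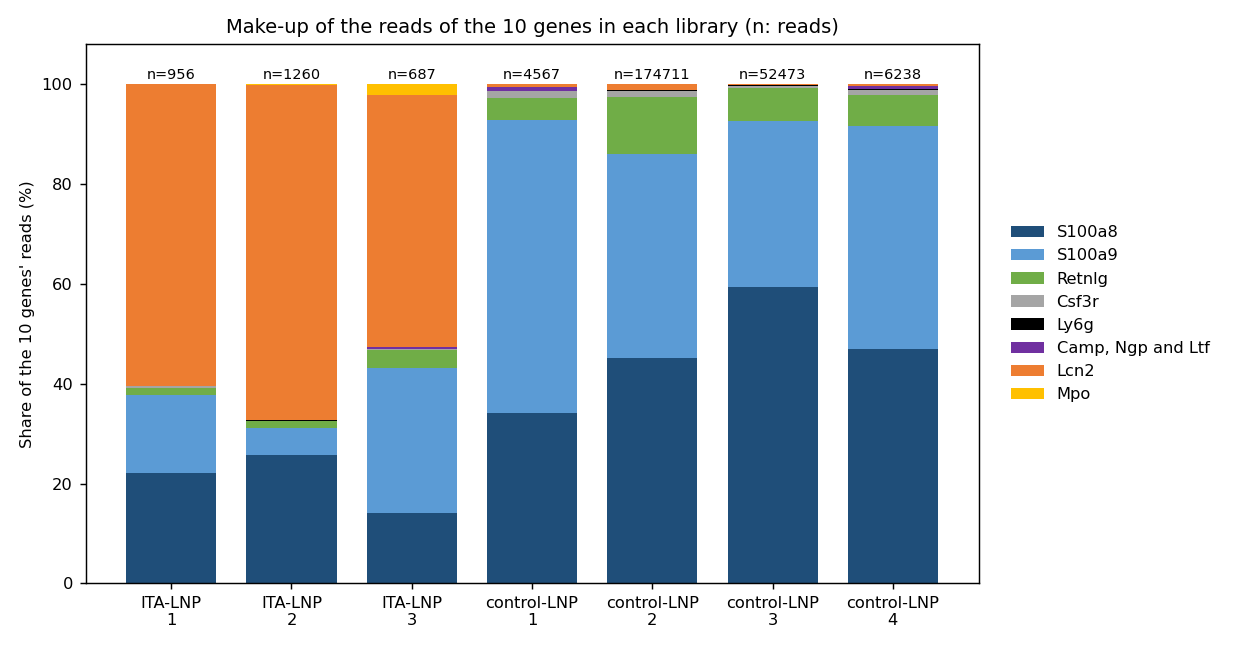
Share of the reads of the 10 genes that each gene took in each library, as stacked bars with the number of reads above them, ITA-LNP at the left. Lcn2 took 50.5% to 67.1% of these reads in ITA-LNP libraries and 0.164% to 1.23% in control-LNP libraries, where S100a8 and S100a9 together took 85.9% to 92.8%.

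S100a8 and S100a9 together took 37.8%, 31.2% and 43.1% of the 10 genes' reads with ITA-LNP, and 92.8%, 85.9%, 92.6% and 91.6% with control-LNP. The Wilson 95% intervals were 28.7% to 46.8% over the ITA-LNP libraries and 85.8% to 93.5% over the control-LNP libraries. Lcn2 was the most abundant of the 10 genes in each ITA-LNP library. In control-LNP libraries it ranked below S100a8, S100a9 and Retnlg each time.

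The specific granule genes were near the limit of detection. Camp (chromosome 9, 109847379 to 109849617), the cathelicidin antimicrobial peptide, had 0, 1 and 0 reads with ITA-LNP and 6, 0, 18 and 1 with control-LNP. Ngp (chromosome 9, 110419747 to 110423012), a neutrophilic granule protein related to cathelicidins, had 0, 0 and 1 reads with ITA-LNP and 3, 0, 20 and 27 with control-LNP. Ltf (chromosome 9, 111019271 to 111042767), the iron-binding lactoferrin, had 0, 0 and 1 reads with ITA-LNP and 27, 0, 9 and 16 with control-LNP. Each was listed at 0 in control-LNP replicate 2, the library with the most S100a8 reads, and Ngp and Ltf had more reads in each other control-LNP library than in any ITA-LNP library. Camp had 1 read in control-LNP replicate 4 and 1 in ITA-LNP replicate 2, so that its groups were not separated by reads. In exact two-sided permutation tests on log2(CPM + 1) none passed (p = 0.257, 0.257 and 0.143; adjusted p = 0.343 for each over 4 genes). Without control-LNP replicate 2, Ltf reached the filter through the other control-LNP libraries, with a log2 fold change of -1.93 ± 0.54 that is given as a description only, since leaving out the control-LNP library at 0 reads and the filter together fix its direction. Camp and Ngp stayed below the filter.

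Summed, Camp, Ngp and Ltf made 0, 0.147 and 0.275 CPM with ITA-LNP, and 7.09, 0, 9.04 and 7.22 CPM with control-LNP. Among control-LNP replicates 1, 3 and 4 this sum differed by at most 1.27 times, while S100a8 differed by 19.5 times. As a share of the reads of the 10 genes it was 0.788% (Wilson 95% interval 0.570% to 1.09%), 0.0896% (0.0674% to 0.119%) and 0.705% (0.526% to 0.946%) in those libraries. Control-LNP replicate 2 had 0 of 174711 reads, which allows a share of up to 0.00172%. With ITA-LNP the shares were 0 of 956, 1 of 1260 and 2 of 687 reads, and 0 of 956 allows up to 0.314%, above the share of control-LNP replicate 3. The ITA-LNP shares thus rest on at most 2 reads each. Beside the 0 in control-LNP replicate 2 stands the 57.5% of genes at 1 to 5 CPM in the other control-LNP libraries that had no read there. How much this loss contributed to the 0 was not tested.

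Mpo (chromosome 11, 87793581 to 87804413), myeloperoxidase, made at the promyelocyte stage, had 0, 2 and 15 reads with ITA-LNP and 5, 0, 0 and 0 with control-LNP. Its highest value, 2.06 CPM in ITA-LNP replicate 3, rested on 15 reads, and without that library the ITA-LNP mean was 0.147 CPM, in place of 0.785 CPM. The groups overlapped (exact two-sided permutation p = 0.543, adjusted p = 0.543 over 4 genes). Elane, Prtn3 and Ctsg, the serine proteases of azurophil granules, had no read in any of the 7 libraries, nor had Cebpe, a transcription factor of the specific granule stage. Ms4a3, a membrane protein of granulocyte and monocyte progenitors on the same list, was below the filter, with 0, 0 and 1 reads with ITA-LNP and 33, 0, 8 and 9 reads with control-LNP.

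Other neutrophil genes were counted from lists of granule and surface genes. Among 10 genes of specific and gelatinase granules other than the 10 genes above, 8 passed the filter, 5 were lower and none was higher, with a median log2 fold change of -4.61 against 0.15 over all genes tested. The count was 7 lower without control-LNP replicate 2, and 2 lower without ITA-LNP replicate 2, without ITA-LNP replicate 3 or without control-LNP replicate 3. Chil3, a chitinase-like protein that macrophages also make, was lower (-4.98 ± 0.81, adjusted p = 0.00271, limma), as were Cybb, the catalytic subunit of the phagocyte oxidase (-2.51 ± 0.41, adjusted p = 0.00290), and Mmp9, a gelatinase (-4.86 ± 1.11, adjusted p = 0.0148). Chil3 stood at 0.941, 0.737 and 0.961 CPM with ITA-LNP, against 47.7, 90.4, 90.0 and 29.5 CPM with control-LNP. It thus varied far less among control-LNP libraries than S100a8 did. This did not hold for the whole list. Mmp8 was at 14.4, 797, 105 and 23.8 CPM with control-LNP, and Wfdc21 at 6.11, 1644, 131 and 17.4 CPM.

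Of 18 genes of the neutrophil surface and the mature state, 14 passed the filter, 6 were lower and none was higher, with a median of -4.02. Without control-LNP replicate 2, 9 of 13 were lower, and only 1 of those tested was lower without ITA-LNP replicate 2 or without control-LNP replicate 3. Clec4e, a receptor for mycobacterial glycolipid and dead cells, changed by -4.54 ± 1.09 (adjusted p = 0.0188, limma), and Fpr2, a formyl peptide receptor, by -4.62 ± 1.17 (adjusted p = 0.0240). Clec4e was at 7.22, 0.737 and 0.412 CPM with ITA-LNP, against 25.8, 285, 68.7 and 28.9 CPM with control-LNP, with control-LNP replicates 2 and 3 on top as for the alarmins and no overlap between the groups.

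The genes whose pattern over the 7 libraries was most like that of S100a8 were found by the root mean square difference of their log2(CPM + 1), each centred on its own mean, among 11929 tested genes, predicted and clone names left out. The closest 8 were Mmp8 (0.68), Retnlg (0.72), Il1b (0.89), Ifitm1 (0.94), Csf3r (0.96), S100a9 (0.96), Fpr2 (0.97) and Wfdc21 (1.04). Of these, 3 belong to the 10 genes described. Mmp8, the neutrophil collagenase, was at 0.471, 0.884 and 0.275 CPM with ITA-LNP, against 14.4, 797, 105 and 23.8 CPM with control-LNP. Ly6g came at rank 148 with a difference of 1.85, and Lcn2 at rank 6126 with 4.07.

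Ligands, receptors and sensors tied to these genes went in several directions: 10 of 12 were tested, 1 was lower and 4 were higher. Cxcl12, which retains neutrophils in the marrow, was higher with ITA-LNP (6.34 ± 0.67, adjusted p = 0.000330, limma) and its receptor gene Cxcr4 lower (-4.23 ± 0.89, adjusted p = 0.00964). Cxcl1, a chemokine that draws neutrophils through CXCR2, was at 88.3, 51.0 and 192 CPM with ITA-LNP, against 0.591, 0.598, 0.962 and 0 CPM with control-LNP. It was thus higher where the neutrophil transcripts were lower (6.01 ± 0.87, adjusted p = 0.00163). Wall markers were higher there as well: 6 fibroblast markers summed to 18917 to 21987 CPM with ITA-LNP and 103 to 238 CPM with control-LNP. The part of this difference in the values of the ligands and receptors was not tested. The receptors and sensors of the alarmins did not pass: Tlr4, through which S100A8 signals, stood at a log2 fold change of 1.05 ± 1.27 (limma, adjusted p = 0.654), Cd33, bound by S100A9 in human cells, had -2.61 ± 1.19 (adjusted p = 0.181), and Ager, the RAGE receptor, was below the filter. Slc22a17, a receptor for lipocalin 2, was at 21.0, 29.5 and 26.1 CPM with ITA-LNP, against 0.394, 0.150, 1.92 and 2.79 CPM with control-LNP (3.68 ± 0.87, adjusted p = 0.0170). Lcn2 and Slc22a17 were thus both higher in ITA-LNP libraries than in control-LNP replicates 1, 3 and 4. In control-LNP replicate 2 Lcn2 was at its highest level. Slc22a17 was at 0.150 CPM there, under the 0.449 CPM that 0 reads allow in that library. In replicate 1 it was also under that limit (0.394 CPM, limit 0.591 CPM). Of genes at 1 to 5 CPM in the other control-LNP libraries, 57.5% had no read in replicate 2. How much this loss contributed to the Slc22a17 value was not tested.

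Transcription factors of the granulocyte line differed among themselves. Spi1, which encodes PU.1, was lower with ITA-LNP (-4.91 ± 0.94, adjusted p = 0.00623, limma). Cebpd, an inducible C/EBP factor, was at 442, 357 and 438 CPM with ITA-LNP, against 38.6, 668, 98.9 and 28.4 CPM with control-LNP, so that it lay above control-LNP replicates 1, 3 and 4 and below replicate 2, as Lcn2 did. Its change did not pass over all libraries (2.13 ± 0.93, adjusted p = 0.163) and passed without control-LNP replicate 2 (3.08 ± 0.44, adjusted p = 0.00154). Cebpb, a further C/EBP factor, did not pass (-1.33 ± 0.83, adjusted p = 0.335).

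The S100 relatives did not share the fall of S100a8 and S100a9 as a family: of 11 genes, 9 were tested, 1 was lower and 2 were higher, with a median log2 fold change of 0.87. S100a16 (5.41 ± 0.82, adjusted p = 0.00202, limma) and S100b (4.52 ± 0.89, adjusted p = 0.00702) were higher, and S100a10, the partner of annexin A2, was lower (-1.53 ± 0.38, adjusted p = 0.0218). Among gene relatives of the other members, 8 of 12 were tested, 2 were lower and 1 was higher. All 3 belong to the Ly6 family of Ly6g: Ly6e was lower (-2.88 ± 0.31, adjusted p = 0.000346, limma), Ly6c1, known from endothelium, was higher (5.30 ± 0.72, adjusted p = 0.00119), and Ly6c2, known from monocytes, was lower (-5.75 ± 1.16, adjusted p = 0.00814). Ly6c1 and Ly6c2 are close copies, and their counts are uncertain where reads could be split.

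The summed level of the 10 genes spread widely among the control-LNP libraries, where S100a8 and S100a9 made 85.9% to 92.8% of it. The 10 genes summed to 150, 186 and 94.3 CPM with ITA-LNP and to 900, 26120, 10092 and 1023 CPM with control-LNP, the highest control-LNP library being 29.0 times the lowest, or 11.2 times without control-LNP replicate 2. The same ratio was 1.38 for the 8 platelet markers, 2.04 for the 7 B cell, 2.39 for the 8 T cell, 2.51 for the 8 monocyte and 3.62 for the 7 erythroid markers. It was 27.4 for the sparse list of 10 eosinophil, basophil and mast cell markers, or 2.21 without control-LNP replicate 2. For the 18 genes of the neutrophil surface and the mature state it was 5.23, or 1.92 without control-LNP replicate 2. For the 10 other genes of specific and gelatinase granules it was 3.39, or 1.49 without that replicate. That granule sum includes Lyz2, which macrophages also express. Within the same list, Mmp8 (14.4 to 797 CPM) and Wfdc21 (6.11 to 1644 CPM) spread far more among the control-LNP libraries, and Chil3 did not. These spans are values of 4 libraries and were not tested against each other. Lower with ITA-LNP were all 8 platelet, 6 of 7 B cell, 5 of 8 T cell and 5 of 8 monocyte markers; 1 monocyte marker was higher, and 5 of 8 macrophage markers were higher. Of 10 eosinophil, basophil and mast cell markers, 1 passed the filter and the list summed to 10.8 to 15.8 CPM with ITA-LNP and 0.449 to 12.3 CPM with control-LNP, with the defining genes Prss34 and Mcpt4 at 0 in all libraries. The part of these other cells in the neutrophil values was not tested.

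**Figure D4:**
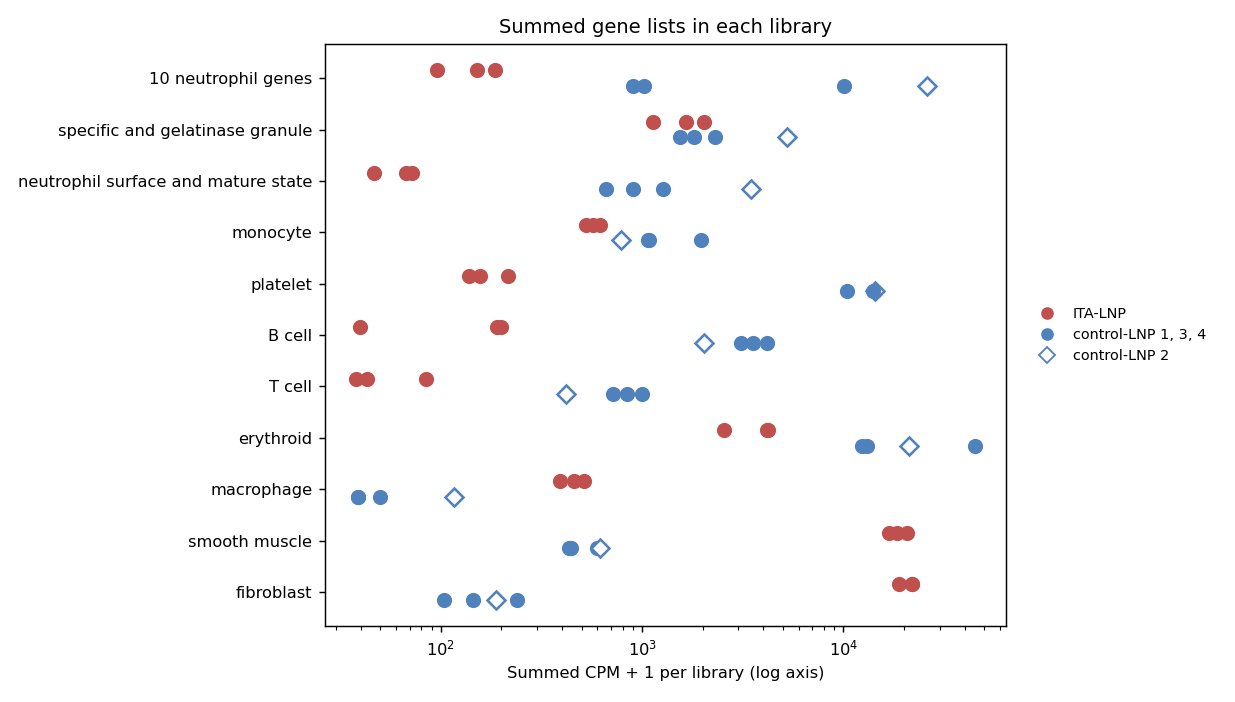
Summed CPM + 1 of gene lists in each library on a log axis, with ITA-LNP points above control-LNP points in each row and control-LNP replicate 2 as an open diamond. The row of the 10 neutrophil genes spreads from 900 to 26120 CPM over the control-LNP libraries, while the platelet row spreads from 10424 to 14392 CPM; the row of specific and gelatinase granule genes overlaps between the groups and includes Lyz2 at 1015 to 1953 CPM with ITA-LNP, a lysozyme gene that macrophages also express.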

How the data were processed

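RNA was measured by 3′ mRNA sequencing (QuantSeq) of 500 ng of total RNA, per the labels' protocols. Per the submitters' processing notes, reads were placed on mm10, with aligner, counter and annotation not given in the sources used here. Deposited by the authors was log10 of CPM + 1 for 32544 genes, which was worked out from the values: 10 to the value minus 1 sums to 1000000 in each library. All values were whole reads within a tolerance of 0.01, which gave the depths.

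The design had assumed log CPM with no base; values were converted to log2(CPM + 1), genes with a mean of at least 1 were kept, and limma-trend (limma 3.58.1, R 4.3.3) was fitted over all of them, with Benjamini-Hochberg adjustment and a threshold of 0.05. The fit was tested on simulated counts with the same spread setting for all genes and no outlying library, unlike these data. Exact two-sided permutation tests over 35 splits served for genes below the filter and for ratios between genes with at least 10 reads in the divisor. Coordinates are from GENCODE M21, promoters from RefSeq on GRCm38.p6. Python 3.11.15, pandas 2.3.3, numpy 2.4.6, scipy 1.17.1 and matplotlib 3.10.9 were used.

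The 10 genes and the gene lists were chosen with earlier results of these data known. Named beside the 10 genes were the first 3 of each list by p, the receptors and ligands of the alarmins, of Csf3r and of lipocalin 2, and the 8 closest patterns; the other cell lists are given by counts and sums. Cebpe, Ctsg, Lyz2, Prss34 and Mcpt4 were named after their values were seen, and 1 gene that the rule names is not reported here. Groups and replicate numbers came from the sample titles. Alternatives were other filters, pseudocounts of 0.25 and 4 CPM, median centring, quantile normalization, other variance priors, sample weights, limma-voom, a replicate block and leaving out each library.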

Additional observations from a re-analysis of the deposited data

Results flagged for a closer look

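In the control-LNP libraries, 7 of 24 genes checked had a library far from the other 3. Chance gives about 1 in 20 for normal values of genes that vary independently. Several of these genes shared the same high library, so the count is a description only. The measure was the gap of the extreme library to its nearest neighbour over the whole range. Control-LNP replicate 2 was the high library for Lcn2 (0.960), Cebpd (0.890), Ly6g (0.882), Csf3r (0.862) and Clec4e (0.835), at 321, 668, 67.0, 305 and 285 CPM. S100a8, S100a9 and Retnlg were not among them, because control-LNP replicate 3 was high as well. Replicate 1 was the high library for Cybb (0.879, at 660 CPM) and for Mpo (1.0, on 5 reads against 0). No cause was tested.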

How the results depend on the processing

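S100a8, S100a9 and Retnlg were lower in all 19 alternatives and passed in 18 each, the exception being limma-voom (adjusted p = 0.525, 0.497 and 0.413). Csf3r was lower in all 19 and passed in 14. Ly6g passed in none of 16, and Lcn2 was higher in all 19 and passed in 3. Of the 10 genes, 4 were called lower over all libraries, 1 with limma-voom, and 3 to 5 with 1 library left out. None was called higher over all libraries, and 1 (Lcn2) was with sample weights and with control-LNP replicate 2 left out and median centring, and 0 to 1 with 1 library left out. Over all genes, 651 were lower and 1306 higher. The lower calls were 1249 with median centring, 1401 with quantile normalization, 2243 with sample weights and 2548 with control-LNP replicate 2 left out and median centring, and 401 to 2065 with 1 library left out. The higher calls were 741 with median centring, 2100 with sample weights, and 984 to 1988 with 1 library left out; the cause was not tested. Median centring moved the median log2 fold change of all genes to -0.98, in place of 0.15, and quantile normalization to -0.19; with median centring 3 of the 10 genes passed as lower, and Csf3r did not. Same-numbered libraries of the groups share only a number (correlations of their deviations -0.0173 to 0.00528, under those of some other pairs). With a replicate block, 322 genes were lower and 738 higher, and 4 of the 10 genes were lower. Reads limit Camp, Ngp, Ltf, Ly6g and Mpo, and the ITA-LNP values of Csf3r.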
